A study of Mus musculus with 21 samples.

Results

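Single-cell RNA profiles of activated mouse CD8 T cells cultured for 3 days with 50 IU/mL of IL-15 were compared with those of cells cultured for the same time without added cytokine. The 2 libraries held 4399 barcodes with IL-15 and 4457 without, of which 1 was removed by the limits given below, and together made 8856 of the 106458 barcodes in the 21 libraries of the study. Both libraries held OT1 cells, CD8 T cells with a transgenic T cell receptor that recognises a peptide of ovalbumin, and both had been activated from the naive state on day 0 with antibody-coated beads that engage CD3 and CD28. The labels call OT1 a cell line and do not say how many mice gave the cells. Each condition had 1 library, so nothing below has a replicate, no test was possible and every difference is between these libraries.

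Other libraries of the study were set beside the pair as levels, and some also as direct differences. They were naive cells of day 0 and activated cells of day 5 without cytokine or with 50 IU/mL of IL-15. Those of day 3 were activated cells with 5 IU/mL of IL-15 or with 5 or 50 IU/mL of IL-2. Day 3 cells with 5 or 50 IU/mL of IL-2v (described in the labels as a mutant IL-2) were also used. The treatment label of the IL-15 library names interleukin-16 at 50 IU/mL, whereas its title and the design text give IL-15. The title was followed. The extraction label describes a sort of live CD44+CD45.1+CD8+ cells from tumours, and the culture label describes bead activation with cytokine. The cells were taken as cultured.

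IL-15 is a cytokine of the common gamma chain family that keeps memory CD8 T cells and natural killer cells alive and dividing. It signals through the beta and gamma chains that it shares with IL-2, here encoded by Il2rb and Il2rg, to the kinases JAK1 and JAK3 and the transcription factor STAT5. STAT5 induces survival genes such as Bcl2, cell cycle genes such as Ccnd2 and feedback inhibitors of the SOCS family, and the same receptor feeds the PI3K and mTOR pathway, which is known for raising nutrient uptake, lipid synthesis and ribosome production.

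The libraries were of like depth. Limits of 1000 UMIs and 500 genes from below, and of 10% mitochondrial UMIs from above, removed 1 barcode. The library without cytokine held 22249358 UMIs (unique molecular identifiers, tags that each mark 1 captured RNA molecule) with a median of 4551 per cell, and the IL-15 library held 21200905 with a median of 4317. Mitochondrial genes gave 4.82% of UMIs without cytokine and 4.48% with IL-15, and 3 barcodes occurred in both libraries. The label of T cell was checked against its markers: the 7 T cell markers summed to 5926 CPM (a gene's UMIs scaled to a common library total) without cytokine and 6093 CPM with IL-15, while Ms4a1, Pax5, Lyz2, Csf1r, Adgre1, C1qa, Flt3, Xcr1, Ncr1 and Hbb-bt had no UMI in either library. A count of 0 allows a share of up to 0.0828% of cells with a UMI without cytokine and 0.0838% with IL-15 (exact upper limits), which limits captured UMIs and not expression. Other markers in the same lists were present in both. Among them, Cst3, from the myeloid list, had a UMI in 40.4% of cells without cytokine and 40.3% with IL-15. Cd79b, from the B cell list, had one in 6.46% and 6.71%, and the myeloid marker Cd68 in 1.28% and 1.45%. The dendritic marker Zbtb46 had one in 0.359% and 0.296%, and Fcer1g, from the NK cell list, in 0.269% and 0.318%. Klrb1c, from the NK cell list, and Hba-a1, from the erythroid list, had UMIs only with IL-15, in 0.0682% and 0.0909% of cells. Cd4 had a UMI in 0.808% of cells without cytokine and in 0.409% of cells with IL-15, and Zbtb7b, which encodes the CD4 lineage factor ThPOK, in 5.54% and 6.0%, against 72.4% and 71.8% for Cd8a.

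A level is given as CPM of the UMIs summed over a library, and a difference as log2(CPM + 1) with IL-15 minus without. On that scale the differences of genes with few counts come out too small. Counts of genes at least 2-fold apart use it, so a gene just past 2-fold by CPM can be left out. Folds carry a 95% interval that covers counting error only, not the spread between cultures. A gene was examined where the higher library had at least 20 CPM, which left 5737 genes. Of these, 47 were at least 2-fold higher with IL-15 (0.819% of the genes examined) and 15 were at least 2-fold lower (0.261%). The counting interval lay wholly at or above 2-fold for 25 of the 47 and wholly at or below 0.5-fold for 13 of the 15. The gene lists used below were drawn up for this tissue and treatment with earlier results of these data known, so they only describe. Both counts depend on the scaling, because 67.5% of the genes examined lay above 0 and their median was 0.10: with factors from trimmed means of M values (TMM) the median was -0.01, and 27 genes lay past 2-fold upwards and 24 downwards, so that the higher genes made up 52.9% of the genes past 2-fold in place of 75.8%.

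**Figure D1:**
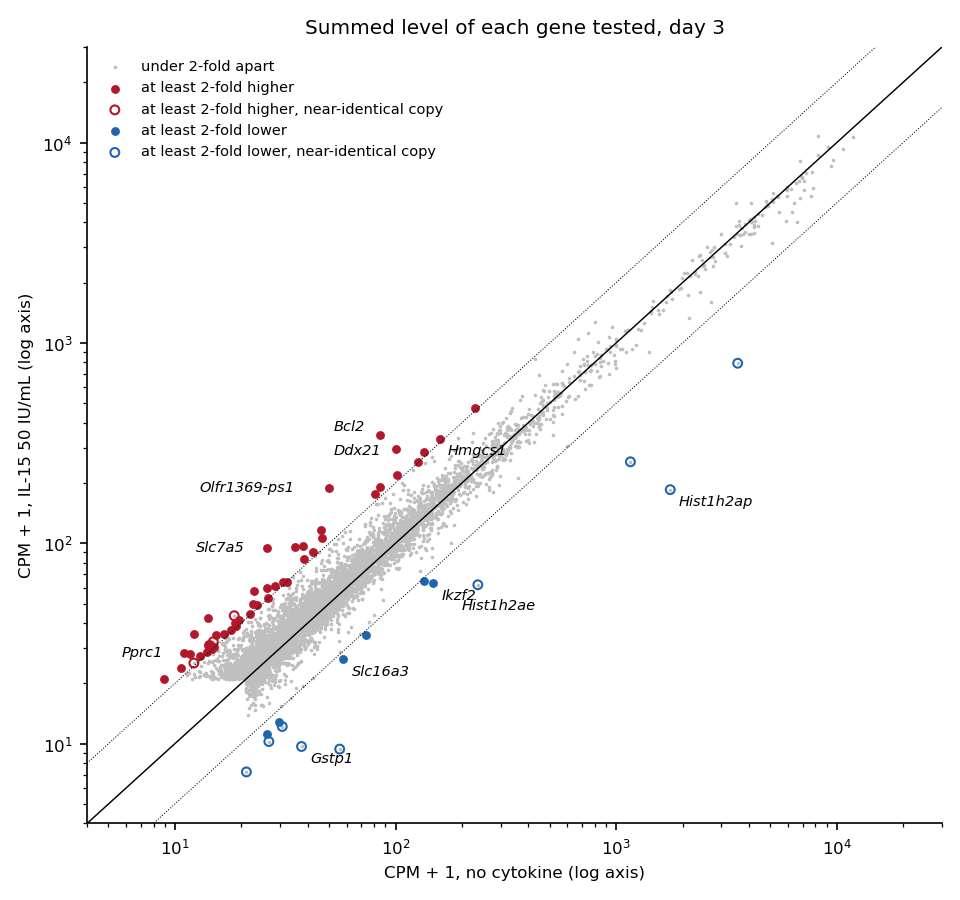
Level of each of the 5737 genes in the library without cytokine (x axis) and with 50 IU/mL IL-15 (y axis) as CPM + 1 on log axes; the solid line marks equal levels and the dotted lines 2-fold differences. Red points are the 47 genes at least 2-fold higher and blue points the 15 at least 2-fold lower, open where another gene has a near-identical transcript; the 4 genes at least 2-fold lower with the highest level without cytokine are all open.

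Among the higher genes the largest difference was that of Bcl2, the antiapoptotic protein of the mitochondrial outer membrane (chr1:106538178-106714274, minus strand, GRCm38). It had 84.0 CPM without cytokine and 345 CPM with IL-15, a 4.11-fold difference (95% counting interval 3.90 to 4.32). At 5 IU/mL of IL-15 it had 139 CPM, so the lower dose stood between the pair. In all, 8 of 5619 genes (0.142%) were at least 2-fold higher at the lower dose than without cytokine and 16 (0.285%) lower. Bcl2 was also the only gene at least 2-fold apart between the IL-15 doses, where 1 of 5697 genes (0.0176%) was higher at 50 IU/mL and none was lower. Its level was 557 CPM with 50 IU/mL of IL-2, 481 CPM with 50 IU/mL of IL-2v and 191 CPM in naive cells, so the level without cytokine was below that of naive cells and the level with IL-15 above it.

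Bcl2 was also counted per cell. When every cell was thinned to 2000 UMIs to equalise depth, which left 4244 cells without cytokine and 4230 with IL-15, 15.1% of cells without cytokine (exact 95% interval 14.0 to 16.2%) and 47.5% of cells with IL-15 (46.0 to 49.0%) had a Bcl2 UMI. Cells with a UMI held 1.15 of them on average without cytokine and 1.56 with IL-15. At such low counts both values move with the level, so more cells with the transcript and more transcript per cell cannot be told apart. In the same thinned cells Cd4 had a UMI in 0.259% and 0.165% of cells. The share of Bcl2 that free RNA could give was not measured, since no cell type without Bcl2 was set apart in these libraries. Before thinning, Bcl2 had a UMI in 30.9% and 71.9% of cells.

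Of 14 listed genes of the BCL2 family, the regulators of mitochondrial cell death, 8 reached the limit. Among these, 2 were at least 2-fold higher and none was lower, beside 0.819% higher and 0.261% lower over all genes examined. The list's median of 0.15 was close to the 0.10 of all genes. The other gene past 2-fold was Bcl2l1, which encodes the antiapoptotic BCL-XL and had 14.3 CPM without cytokine and 33.9 CPM with IL-15. Mcl1, another survival gene, was nearly level, at 143 and 131 CPM. Of the genes with the opposite role, Bcl2l11, which encodes the death-promoting BIM, had 42.1 CPM without cytokine and 57.4 CPM with IL-15, and Bax had 115 and 110 CPM.

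Of 17 STAT5 feedback and target genes in the list, 7 reached 20 CPM in either library and the other 10 were not counted. All 7 lay above 0, with a median of 0.81, and 1 was at least 2-fold higher, beside 67.5% above 0, a median of 0.10 and 0.819% at least 2-fold higher over all genes examined. That gene was Ccnd2, which encodes the G1 cyclin D2, with 229 CPM without cytokine, 375 CPM with 5 IU/mL of IL-15 and 473 CPM with 50 IU/mL. Pim1 and Pim2, survival kinases, had 192 and 119 CPM without cytokine and 336 and 232 CPM with IL-15. Socs2, a feedback inhibitor of cytokine receptors, had 37.0 and 67.5 CPM, whereas Socs1, which belongs to the same family, had 81.4 and 93.3 CPM. Myc, a growth transcription factor, had 104 and 139 CPM, a 1.34-fold difference that stayed under the 2-fold mark.

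Cish, a feedback inhibitor of cytokine receptors induced by STAT5, was below the limit of 20 CPM and was not counted. It had 8.27 CPM without cytokine, 11.6 CPM with 5 IU/mL and 18 CPM with 50 IU/mL of IL-15, against 147 CPM with 50 IU/mL of IL-2 and 73.7 CPM with 50 IU/mL of IL-2v. The IL-15 library therefore stood nearer to the library without cytokine than to either IL-2 library in this gene, unlike in Bcl2.

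The sequence that STAT5 dimers bind, TTCNNNGAA, was searched in promoters from RefSeq (GRCm38.p6, 250 bases before to 50 after the transcription start; the pattern is its own reverse complement, so both strands are read at once, and overlapping matches were counted). Windows are shown for Cish, the reference case, and for the 3 genes at least 2-fold higher that held a match, which for Pprc1 and Slc7a1 lies before a start site inside the annotated gene, 5′ to 3′ on the gene's strand with the match in capitals.
Cish, chr9:107296629-107296688, plus strand: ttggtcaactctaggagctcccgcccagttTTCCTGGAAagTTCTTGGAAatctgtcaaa
Pprc1, chr19:46056376-46056444, plus strand: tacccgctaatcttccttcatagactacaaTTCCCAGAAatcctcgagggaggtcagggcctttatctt
Slc7a1, chr5:148392923-148392991, minus strand: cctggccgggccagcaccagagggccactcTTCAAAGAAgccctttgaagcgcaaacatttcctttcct
Surf6, chr2:26903056-26903124, minus strand: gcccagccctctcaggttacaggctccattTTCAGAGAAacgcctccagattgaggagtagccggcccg
The 2 matches of Cish begin at bases 1 and 12 from its transcription start, and those of Pprc1, Slc7a1 and Surf6 begin at bases -133, -146 and -207. For the 47 higher genes, 42 promoters of 37 genes were in the table and 3 of them held a match (7.14%), which was near the 6.83% of the promoters of all genes examined and the 8.30% of all promoters in the table. Within this window the higher genes held the pattern about as often as promoters at large. In the STAT5 list, whose genes were chosen as known targets, 5 of 15 promoters held it (33.3%). These 15 belonged to 11 of the 17 listed genes, and Ccnd2, Socs2 and Myc were not among them. The matches were in Bcl6, Cish, Lta and Socs3. The promoters of Pim1, Pim2, Socs1, Ccnd3, Cdkn1a, Gadd45g and Lif held none.

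Of 21 amino acid and ATF4 genes in the list, 16 reached the limit. Among these, 15 lay above 0, 3 were at least 2-fold higher, none was lower and the median was 0.61 (all genes examined: 67.5% above 0, 0.819% at least 2-fold higher, median 0.10). Slc7a5, the leucine transporter LAT1, had the largest difference of the list, with 25.2 CPM without cytokine, 57.1 CPM with 5 IU/mL of IL-15 and 93.7 CPM with 50 IU/mL, a 3.72-fold difference over no cytokine (3.38 to 4.09). Slc7a1, the arginine transporter CAT-1, had 21.8 and 56.8 CPM without and with 50 IU/mL. Asns, which makes asparagine and is a target of ATF4, had 17.9 and 37.5 CPM.

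The partners of these genes differed less. Slc3a2, the heavy chain that carries LAT1 to the membrane, had 54.2 and 78.4 CPM, and the glutamine transporter Slc1a5 had 75.3 and 111 CPM. Atf4 itself, the transcription factor of the amino acid response, had 113 and 185 CPM. The serine and one-carbon enzymes Shmt2 and Mthfd2 had 50.6 and 56.9 CPM without cytokine and 90.8 and 99.2 CPM with IL-15. Ddit4, an mTOR inhibitor in the same list, was the only member below 0, at 119 and 104 CPM. Outside the list, the glutamine transporter Slc38a2 had 134 and 283 CPM, and the tRNA charging genes Tars and Iars and the tRNA exporter Xpot were 2.11-fold, 2.05-fold and 2.12-fold higher.

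In this list levels were mostly lower with IL-15 than with either IL-2 form at the same dose. The list's median, with 50 IU/mL of IL-15 minus 50 IU/mL of the other cytokine, was -0.91 against IL-2 and -1.03 against IL-2v, where the 5737 genes had -0.04 and -0.07. Asns had 147 CPM with IL-2 and 132 CPM with IL-2v, against 37.5 CPM with IL-15. Slc7a5 had 186 and 268 CPM in those libraries.

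Of 26 ribosome biogenesis genes in the list, 24 reached the limit. Of these, 22 lay above 0, 4 were at least 2-fold higher and none was lower, with a median of 0.78 (all genes examined: 67.5% above 0, 0.819% at least 2-fold higher, median 0.10). Ddx21, an RNA helicase of nucleolar transcription and ribosomal RNA processing, had 99.4 CPM without cytokine, 222 CPM with 5 IU/mL and 296 CPM with 50 IU/mL of IL-15, a 2.98-fold difference over no cytokine (2.84 to 3.13). Nolc1, a nucleolar phosphoprotein, had 45.3 and 105 CPM, and Wdr43, a part of the small subunit processome, had 100.2 and 219 CPM. Srm, which makes spermidine, had 25.2 and 58.5 CPM.

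Not all of the list differed. Npm1, a nucleolar chaperone that has a near-identical copy, had 2164 and 2149 CPM, and Fbl, the methylase of ribosomal RNA, had 128 and 153 CPM. Polr1a, the largest subunit of RNA polymerase I, and Mybbp1a were just under the mark, at 0.99 each on the log2 scale. Further nucleolar genes past 2-fold outside the list were Gnl3, at 45.1 and 115 CPM, and Surf6, Nifk, Bysl and Usp36. The cytosolic ribosomal proteins themselves did not follow: 83 measured genes had a median of -0.04, with none past 2-fold, and gave 34.2% of UMIs without cytokine and 32% with IL-15.

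Of 23 cholesterol synthesis genes in the list, 22 reached the limit. Of these, 21 lay above 0, 4 were at least 2-fold higher and none was lower, with a median of 0.77 (all genes examined: 67.5% above 0, 0.819% at least 2-fold higher, median 0.10). Hmgcs1, an early enzyme of the pathway, had 158 CPM without cytokine, 256 CPM with 5 IU/mL and 332 CPM with 50 IU/mL of IL-15. Of the later enzymes, Hsd17b7 had 11.2 and 34.3 CPM, Msmo1 79.8 and 176 CPM and Lss 22.7 and 48.3 CPM. The gene below 0 was Ebp, at 63.6 and 62.7 CPM. Scd1, a fatty acid desaturase that was not in the list, had 31.1 and 63.4 CPM, and Fasn, fatty acid synthase, was the gene nearest below the mark on the log2(CPM + 1) scale, at 44.1 and 89.2 CPM.

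In this pathway the IL-15 library stood above the IL-2 library of the same dose and close to the IL-2v library. Hmgcs1 had 224 CPM with 50 IU/mL of IL-2 and 260 CPM with 50 IU/mL of IL-2v, and the sum of the list was 2742 CPM with IL-15, 2191 CPM with IL-2 and 2574 CPM with IL-2v. Hsd17b7, Msmo1, Hmgcs1, Surf6, Cdk2ap1, Gm12840 and 6720427I07Rik were the 7 of the 47 genes whose highest level among the 7 day 3 libraries was the one with 50 IU/mL of IL-15, and 3 of them are cholesterol genes. The 47 had been chosen as high in that library, so this was in part set by the choice, and all genes were not ranked this way. The lead of Hsd17b7 was small, at 34.3 CPM against 32.9 CPM with 50 IU/mL of IL-2v. Lss was highest with 50 IU/mL of IL-2v, at 56.6 CPM against 48.3 CPM. The list's median of IL-15 minus IL-2 was 0.42, beside -0.04 over all genes, and that of IL-15 minus IL-2v was 0.11, beside -0.07. At 2000 UMIs a cell, the mean was 5.23 UMIs of the list with IL-15 and 5.25 with IL-2v.

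**Figure D2:**
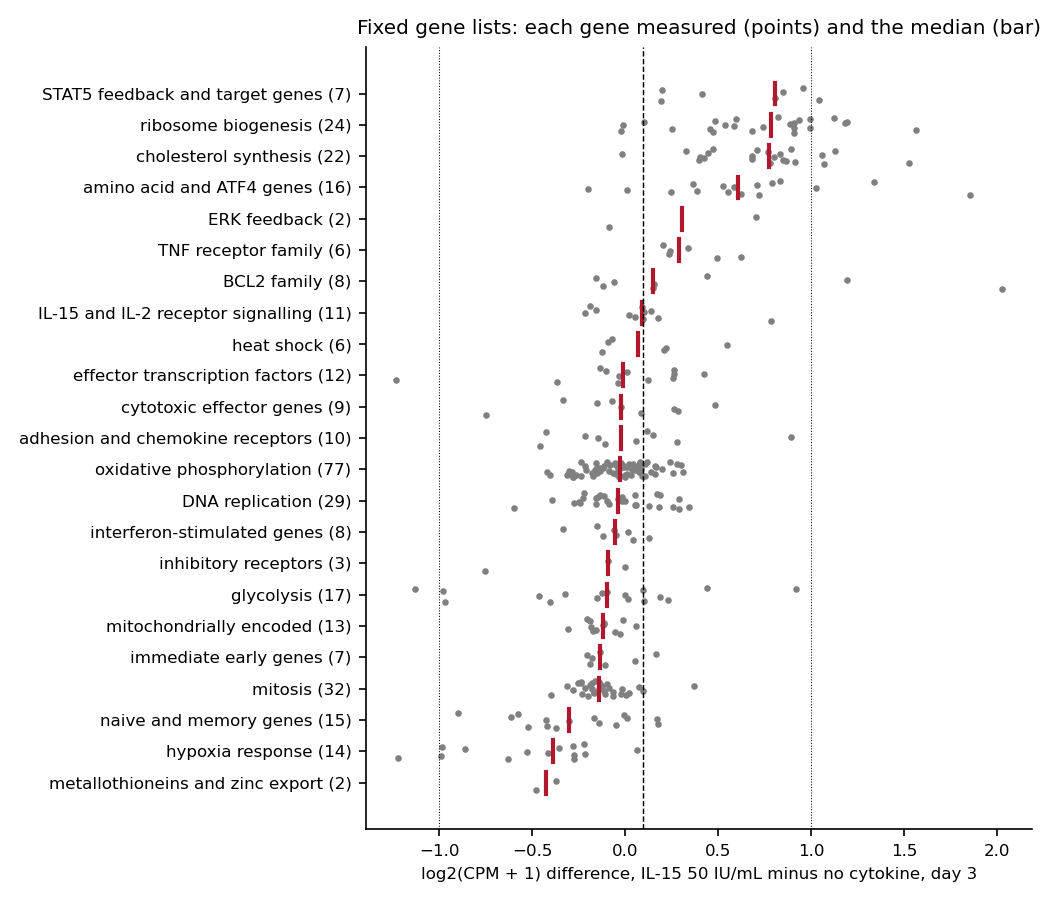
log2(CPM + 1) difference, 50 IU/mL IL-15 minus no cytokine on day 3, for each measured gene (grey points) of 23 gene lists, with the number measured in brackets; red bars are medians, the dashed line is the median of all genes and the dotted lines are 2-fold. STAT5 targets, ribosome biogenesis, cholesterol synthesis and amino acid genes have medians between 0.61 and 0.81, while naive and memory genes and hypoxia genes lie mostly left of the dashed line.

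The counts of these groups per cell had higher medians and higher 90th percentiles with IL-15. At 2000 UMIs a cell, the median number of ribosome biogenesis UMIs was 8 without cytokine and 10 with IL-15, and the 10th and 90th percentiles were 4 and 13 against 5 and 16. Cholesterol genes had a median of 3 UMIs and 5 UMIs, and cells with none made up 9.54% and 3.19%. Amino acid genes had a median of 1 UMI and 2 UMIs, with none in 19.6% and 11.9% of cells. The ranges from the 10th to the 90th percentile overlapped between the libraries in all 3 lists.

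**Figure D3:**
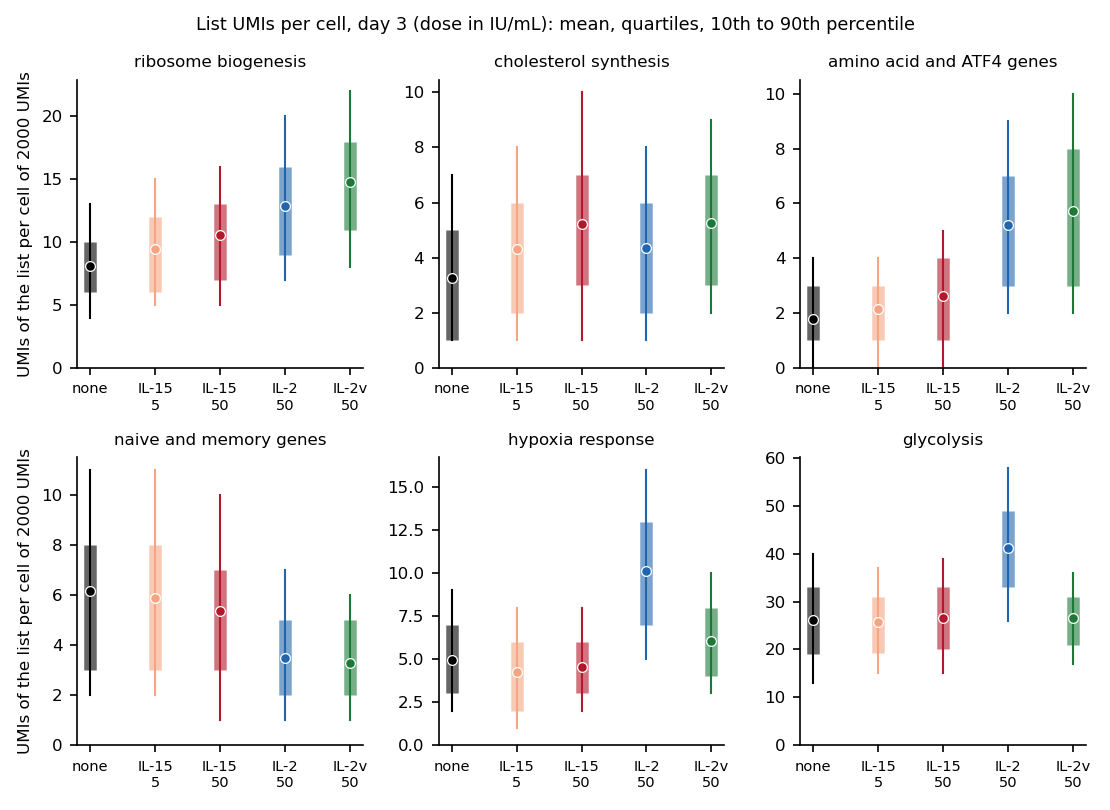
UMIs of 6 gene lists per cell after thinning to 2000 UMIs, in the day 3 libraries without cytokine, with 5 and 50 IU/mL IL-15, and with 50 IU/mL IL-2 or IL-2v; points are means, thick bars quartiles and thin lines the 10th to 90th percentiles over cells of 1 library. The mean of ribosome biogenesis is 8.09 without cytokine and 10.6 with 50 IU/mL IL-15, and that of cholesterol synthesis 3.27 and 5.23, against 12.9 and 4.35 with IL-2.

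Further genes past 2-fold lay outside these lists. Cdk6, the kinase partner of D cyclins, had 37.1 CPM without cytokine and 95.8 CPM with IL-15, a 2.58-fold difference (2.38 to 2.80), but 336 CPM with 50 IU/mL of IL-2 and 309 CPM with IL-2v. Pprc1, a coactivator of mitochondrial biogenesis, had 10.0 and 27.3 CPM without and with IL-15. Cluh, which binds RNAs of mitochondrial proteins, had 7.96 and 20.1 CPM, and Aen, a nuclease induced by p53, had 10.7 and 27.1 CPM. Coro2a, an actin regulator of the coronin family, had 34.2 and 94.8 CPM.

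Transcripts of little known function were also among the 4 largest differences. Olfr1369-ps1, named as an olfactory receptor pseudogene and annotated as protein coding, had 48.8 and 188 CPM, and Gm17767, a long noncoding RNA, had 13.1 and 41.3 CPM. Olfr1369-ps1 was unevenly spread over cells: at 2000 UMIs a cell, 11% of cells with IL-15 had a UMI, and those cells held 3.11 UMIs on average, against 5.07% of cells and 1.81 UMIs without cytokine. Cells with 5 or more Olfr1369-ps1 UMIs numbered 10 without cytokine and 103 with IL-15. Cdk2ap1, at 17.6 and 42.5 CPM, was uncertain because another gene, Gm12184, has a near-identical transcript over 98.3% of its length.

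The remaining 32 genes had log2 differences from 1.0 to 1.19. Beside those given above, they were Larp1, which binds the messages of ribosomal proteins, Neb, Hivep3, Osbpl3, Cndp2, Jaml, St6galnac4, Mettl1, Yae1d1, Nmt1, the noncoding RNA 6720427I07Rik and Cebpb, whose exons overlap by 20.7% with Tmem189 on the opposite strand. Gm12840, Atad3a and 2610318N02Rik also belonged to them and have near-identical copies. In 44 of the 47 genes the library without cytokine was the lowest of the 7 day 3 libraries. The 47 had been chosen with that library as the low one, so this order was in part set by the choice.

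Against the IL-2 forms at the same dose, most of the 47 genes were within 2-fold. Between 50 IU/mL of IL-15 and of IL-2, 136 of 6072 genes (2.24%) were at least 2-fold higher with IL-15 and 220 (3.62%) lower. Among the 47, 5 were lower by that measure and none higher: Asns by -1.94 on the log2 scale, Cdk6 by -1.80, the dipeptidase Cndp2 by -1.31, Gm17767 by -1.24 and Olfr1369-ps1 by -1.14. Between IL-15 and IL-2v, 69 genes (1.14%) were higher with IL-15 and 108 (1.78%) lower. Of the 47, 7 were lower, among them Asns at -1.79, Cdk6 at -1.68, Slc7a5 at -1.51 and Srm at -1.20, and Gm12840, which has near-identical copies, was higher by 2.26. Of the 15 genes lower than without cytokine, 3 were also at least 2-fold lower than with IL-2, namely Slc16a3 at -2.58, Tent5a, a poly(A) polymerase, at -2.42 and Ankrd37 at -2.06, and 11 were lower than with IL-2v.

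Glycolysis genes did not move together. The 17 of 18 glycolysis genes that reached the limit had a median of -0.10, with 1 at least 2-fold lower and none higher (all genes examined: 0.261% lower, 0.819% higher, median 0.10). Slc16a3, the lactate exporter MCT4, had 56.9 CPM without cytokine, 20.3 CPM with 5 IU/mL and 25.4 CPM with 50 IU/mL of IL-15, but 157 CPM with 50 IU/mL of IL-2. Pfkl, a phosphofructokinase, had 68.4 and 34.1 CPM without and with 50 IU/mL of IL-15, whereas Hk2, the inducible hexokinase, had 26.4 and 50.8 CPM. Gapdh and Pgk1, the latter with near-identical copies, had 2982 and 1984 CPM without cytokine and 3491 and 2119 CPM with IL-15. Eno1 had 599 and 305 CPM, with a near-identical copy in Eno1b.

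Of 17 hypoxia response genes in the list, 14 reached the limit. Of these, 13 lay below 0 and 1 was at least 2-fold lower, with a median of -0.39 (all genes examined: 67.5% above 0, 0.261% at least 2-fold lower, median 0.10). Ankrd37 was that gene, at 25.3 and 10.2 CPM, and its exons overlap by 22.7% with Lrp2bp on the opposite strand. Ndrg1 and Hilpda, 2 targets of HIF-1, were nearest above the lower threshold on the log2(CPM + 1) scale. They had 32.7 and 29.4 CPM without cytokine and 15.9 and 14.3 CPM with IL-15. By CPM both were past 2-fold, at 0.487 and 0.488. Bnip3, a mitophagy receptor that also has a near-identical copy, had 78.8 and 42.9 CPM. With 5 IU/mL of IL-15 the levels of Ndrg1, Hilpda and Bnip3 were 15.4, 10.1 and 35.6 CPM, below those of the higher dose. With 50 IU/mL of IL-2 they were 151, 88.9 and 343 CPM, so that the IL-15 library was lower than IL-2 in this list by a median of -1.85.

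Of 17 naive and memory genes in the list, 15 reached the limit. Of these, 12 lay below 0, none was past 2-fold and the median was -0.30 (all genes examined: 67.5% above 0, median 0.10). Id3, a memory-associated inhibitor of E proteins, had 74.7 CPM without cytokine, 49.2 CPM with 5 IU/mL and 39.6 CPM with 50 IU/mL of IL-15. Klf2, which maintains expression of trafficking receptors, had 277 and 180 CPM, Ccr7 182 and 122 CPM and Tcf7 256 and 197 CPM. Lef1, a transcription factor related to that of Tcf7, was level at 217 and 218 CPM. With 50 IU/mL of IL-2, Tcf7 had 50.5 CPM and Klf2 66.3 CPM, and the list's median of IL-15 minus IL-2 was 1.31.

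On the log2(CPM + 1) scale, Ikzf2, which encodes the transcription factor Helios, was the lowest gene without a near-identical copy. By fold, Ankrd37 and Bloc1s1 were lower, at 0.405 and 0.413. Ikzf2 had 147 CPM without cytokine, 90.3 CPM with 5 IU/mL and 62.0 CPM with 50 IU/mL of IL-15, a 0.422-fold difference (0.396 to 0.450), and was seen in 22.4% and 9.72% of cells at 2000 UMIs. On day 5 it had 184 CPM without cytokine and 33.6 CPM with IL-15. The other 11 effector transcription factors measured lay between -0.37 and 0.42. Ctla4, an inhibitory receptor, had 358 and 212 CPM, while Lag3 and Cd160, the other 2 inhibitory receptors measured, had 84.9 and 35.6 CPM without cytokine and 79.5 and 35.6 CPM with IL-15.

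Cytotoxic genes split in direction and none was past 2-fold. Gzmb, which encodes granzyme B, had 642 CPM without cytokine and 899 CPM with IL-15, and was seen in 53.2% and 68.7% of cells at 2000 UMIs. Gzma had 59.7 and 35.1 CPM, and the chemokine Ccl5 had 177 and 140 CPM. The 9 measured genes had a median of -0.02. Ly6c2, a surface marker of effector and central memory CD8 cells from the adhesion list, had 145 and 270 CPM, a 1.86-fold difference.

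The receptor chains themselves were mostly level. Il2rb had 355 and 391 CPM and Il2rg 190 and 197 CPM, while Il2ra, the high-affinity IL-2 receptor chain, had 149 CPM without cytokine, 197 CPM with 5 IU/mL, 257 CPM with 50 IU/mL of IL-15 and 869 CPM with 50 IU/mL of IL-2. Il15ra was too low to be counted, at 7.55 and 10.0 CPM. None of the 11 measured genes of receptor signalling was past 2-fold and their median was 0.09, or -0.01 under TMM scaling. The 6 measured genes of the TNF receptor family list lay between 0.20 and 0.62, led by Tnfsf8 and by Tnfrsf9, which had 83.2 and 118 CPM and stood at 509 CPM with 50 IU/mL of IL-2.

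**Figure D4:**
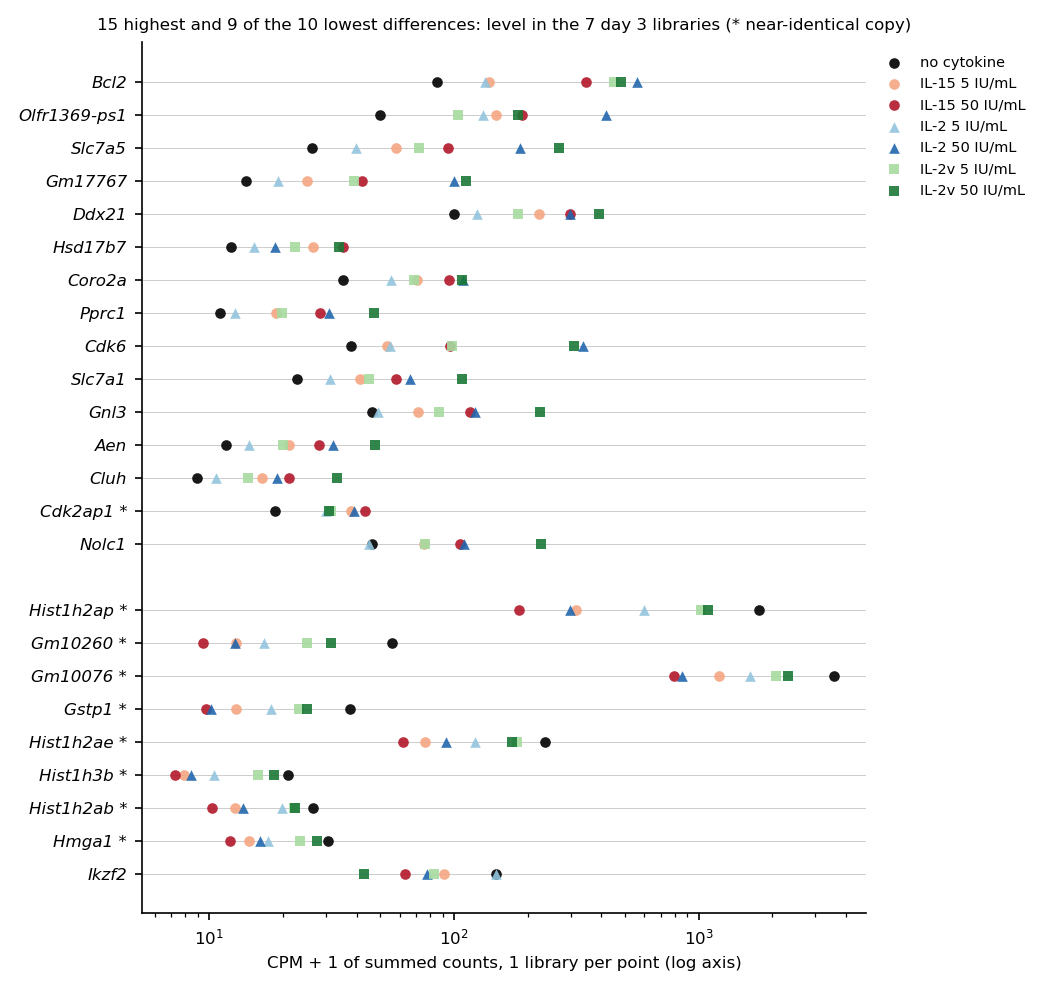
CPM + 1 (log axis) of the 15 highest and 9 of the 10 lowest genes by difference in each of the 7 day 3 libraries, 1 point per library; an asterisk marks genes with a near-identical copy. Bcl2 lies at 84.0 CPM without cytokine and 345 CPM with 50 IU/mL IL-15, and for the marked lower genes the library without cytokine is the highest and that with 50 IU/mL IL-15 the lowest.

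Of the 15 genes at least 2-fold lower, 9 have a near-identical transcript elsewhere in the genome, so UMIs could be split between copies. Among them were Hist1h2ap, Gm10260, Gm10076, Gstp1, Hist1h2ae, Hist1h3b, Hist1h2ab and Hmga1. Hist1h2ap, a clustered histone H2A gene, had 1758 CPM without cytokine and 184 CPM with IL-15. Gstp1 had 36.5 and 8.68 CPM, and Hmga1 had 29.7 and 11.2 CPM. Gm10076, whose sequence matches Rpl41 over 99.7% of its length, had 3555 and 791 CPM, whereas Rpl41 had 9657 and 8194 CPM. Gm10260, which matches Rps18 over 97.1% of its length, had 54.8 and 8.40 CPM, whereas Rps18 had 4083 and 4994 CPM.

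Most other clustered histone genes were within 2-fold. Of 18 measured, 4 were at least 2-fold lower, beside 0.261% of all genes examined, and none was higher, and the linker histone Hist1h1b had 276 and 269 CPM. In all 9 genes with a near-identical copy the library without cytokine was the highest and that with 50 IU/mL of IL-15 the lowest of the 7 day 3 libraries, with the other 5 between. Since the 9 were chosen as lower with IL-15 than without cytokine, this order too was in part set by the choice. Gm10076, for example, had 1212 CPM with 5 IU/mL of IL-15, 853 CPM with 50 IU/mL of IL-2 and 2326 CPM with 50 IU/mL of IL-2v. The part that shared sequence plays in these values was not tested. The 6 lower genes without such a copy were Ikzf2, Ankrd37, Slc16a3, Bloc1s1, whose exons overlap by 55.9% with Rdh5, Tent5a, at 72.4 and 33.9 CPM, and Wdr89, at 133 and 64.1 CPM.

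The share of cycling cells differed little. Cells with a UMI of Mki67 or Top2a, markers of cycling cells, made up 51.1% of cells without cytokine (exact 95% interval 49.6 to 52.6%), 46.7% with 5 IU/mL (45.2 to 48.1%) and 48.3% with 50 IU/mL of IL-15 (46.8 to 49.9%) at 2000 UMIs. With 50 IU/mL of IL-2 the share was 64.1% and with IL-2v 78.5%, and in naive cells 1.83%. The 29 measured DNA replication genes had a median of -0.04 and the 32 mitosis genes of -0.14, with none past 2-fold in either list. Below 0 lay 18 of the 29 and 27 of the 32 (all genes examined: 67.5% above 0, median 0.10). Cells with no mitosis UMI made up 18.4% without cytokine and 23.4% with IL-15.

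Most of the genes past 2-fold were also past it within cells with and within cells without these markers. The 47 and the 15 had been chosen on the same 2 libraries, so this was in part set by the choice. In the 2076 and 2185 cells without a Mki67 or Top2a UMI, 58 of 5493 genes examined were at least 2-fold higher with IL-15, 37 of them among the 47. In the 2168 and 2045 cells with one, 62 of 5864 were higher, 41 of them among the 47. At least 2-fold lower were 20 genes in the former, 13 of them among the 15, and 16 in the latter, 12 of them among the 15. Hist1h3b, for example, differed by -0.82 in cells without the markers, where it was at 1.93 and 0.659 CPM, and by -1.59 in cells with them. Bcl2 was 4.35-fold higher in cells without the markers (4.03 to 4.70) and 3.87-fold higher in cells with them (3.61 to 4.15). Cholesterol synthesis had medians of 0.76 and 0.78, and ribosome biogenesis 0.75 and 0.64. Cish, below the limit, was 1.66-fold higher without the markers (1.29 to 2.15) and 2.80-fold higher with them (2.16 to 3.67).

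**Figure D5:**
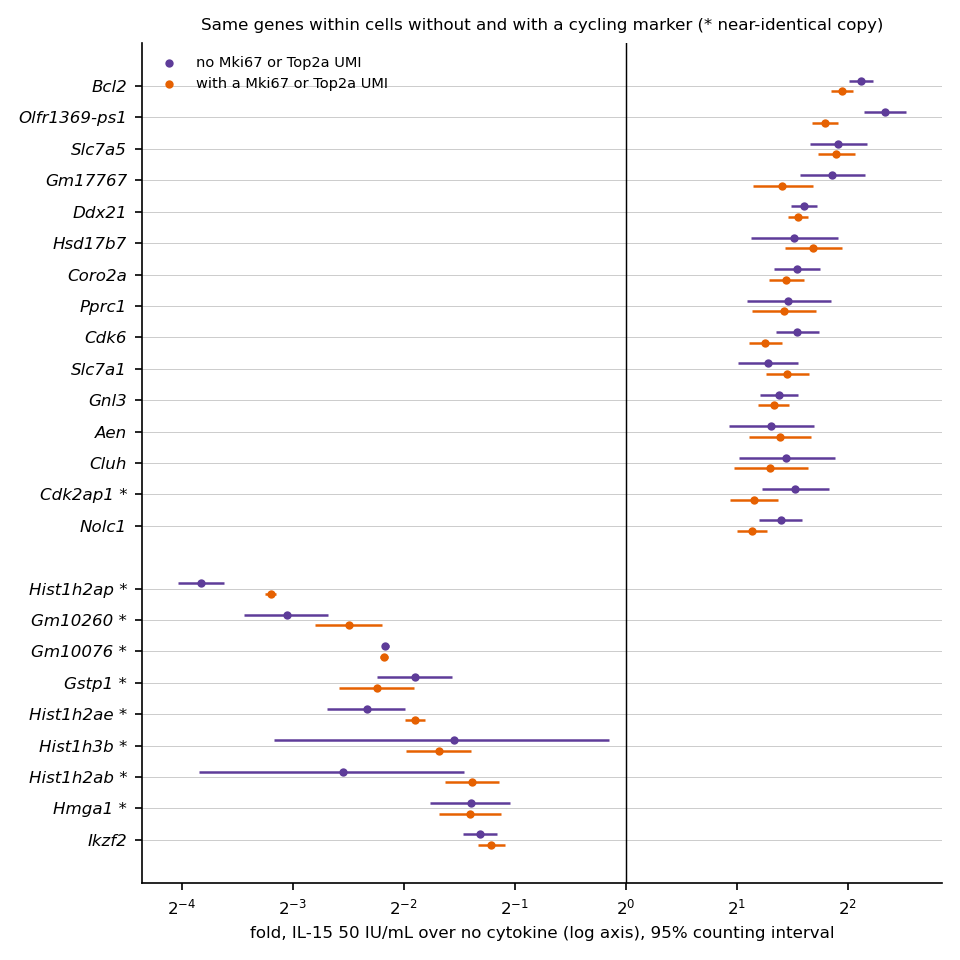
Fold difference, 50 IU/mL IL-15 over no cytokine, of the 15 highest and 9 of the 10 lowest genes in cells without (purple) and with (orange) a Mki67 or Top2a UMI, on a log axis with 95% intervals for counting error; asterisks mark near-identical copies. Each gene lies on the same side of 1 in both kinds of cell, with Bcl2 at 4.35 and 3.87. The genes were chosen on the same libraries, so this was in part set by the choice.

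On day 5 the libraries with 50 IU/mL of IL-15 and without cytokine were further apart, with 330 of 5673 genes (5.82%) at least 2-fold higher and 108 (1.9%) lower. Bcl2 had 60.8 CPM without cytokine and 600 CPM with IL-15 on that day, and Hmgcs1 had 22.1 and 174 CPM. Cholesterol synthesis had a median of 2.25 and STAT5 targets of 1.38, while the hypoxia list, which lay below 0 on day 3, had 0.29. Ddx21, the fifth gene by difference on day 3, was level on day 5 at 265 and 288 CPM. The share of cycling cells on day 5 was 8.30% without cytokine and 20% with IL-15.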

How the data were processed

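Single-cell RNA-seq was done on cultured OT1 CD8 T cells, with 1 library per condition. The deposited values are raw UMI counts per gene and cell, tested to be whole numbers at or above 0 over 17516 genes. The submitters' processing notes name Cell Ranger, Seurat 3.0.2, Seurat 4.0.1 and the build mm10. The gene annotation, the filter on cells and any removal of doublets are not given in the sources used here, and no doublet caller was run. In the deposited count tables of the series, cells held between 1002 and 13407 UMIs.

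Cells were kept from 1000 UMIs and 500 genes upwards and up to 10% mitochondrial UMIs. Counts were summed per library and scaled to CPM, and differences were taken as log2(CPM + 1). A gene was examined if the library with more of it reached 20 CPM. Intervals are exact (Poisson for levels, conditional binomial for folds, Clopper-Pearson for shares; 95%) and cover counting error only. Shares of cells were taken after thinning each cell to 2000 UMIs, leaving out shallower cells (212 without cytokine, 169 with IL-15). A cell was taken as cycling if it held Mki67 or Top2a. With 1 library per condition no test was run. The text names with values the 15 highest and 10 lowest genes and members of the gene lists, and names the other genes past 2-fold. A few genes, 1 of the 10 lowest among them, are not reported here. The members and lists were chosen with earlier results of these data known. Near-identical copies (at least 95% identity over at least 50% of a transcript) were found with blastn 2.17.0+ among GENCODE transcripts of GRCm38. The 2-fold calls and the fold intervals were tested on simulated library sums with Poisson counting error, and the other steps were not. The calculations used Python 3.11.15, numpy 2.4.6, scipy 1.17.1, pandas 2.3.3 and matplotlib 3.10.9. Alternatives changed the cells kept, the scaling, the pseudocount, the expression filter and the thinning, and 2 were added after seeing the data.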

Additional observations from a re-analysis of the deposited data

Results flagged for a closer look

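In 3 genes that reached 20 CPM in either library on both days, the difference between 50 IU/mL of IL-15 and no cytokine was at least 2-fold in opposite directions on day 3 and day 5. Hist1h2ab, Hist1h3b and Gm10260 also changed direction but were below 20 CPM in both libraries of day 5, with differences of 1.81, 1.75 and 1.22 on that day and -1.38, -1.55 and -2.57 on day 3. Other genes changed sign with less than 2-fold on day 5. Among the lower genes, Gm10076, Hmga1, Gstp1 and Wdr89 had 0.82, 0.92, 0.11 and 0.15 on that day. Among the higher genes, Cdk2ap1, Nmt1 and Cebpb had -0.43, -0.26 and -0.13. The change of direction was not tested, since each day has 1 library per condition. Gm12840, a long noncoding RNA, differed by 1.11 on the log2 scale on day 3, from 13.9 CPM without cytokine to 31.3 CPM with IL-15, and by -1.98 on day 5, from 82.1 to 20.1 CPM. Hist1h2ap, a histone H2A gene, differed by -3.25 on day 3, from 1758 to 184 CPM, and by 2.0 on day 5, from 30.3 to 124 CPM. Hist1h2ae, another histone H2A gene, differed by -1.93 on day 3, from 235 to 61.1 CPM, and by 1.40 on day 5, from 14.7 to 40.5 CPM. All 3 genes have near-identical copies. Beside the histone values, the share of cycling cells was 51.1% without cytokine and 48.3% with IL-15 on day 3 and 8.30% and 20% on day 5, and its part in them was not tested.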

How the results depend on the processing

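The 47 higher genes became 72 with at most 5% mitochondrial UMIs, a filter that left out 45.0% of cells without cytokine and 34.5% with IL-15, 27 with TMM scaling, 17 with a pseudocount of 10 CPM, 87 with no expression filter and 23 with at least 50 CPM. Centring within 5 classes of transcript length, added after seeing the data, gave 26. The 15 lower genes became 24 with TMM scaling, 24 with totals without ribosomal protein and mitochondrial genes, 7 with a pseudocount of 10 CPM, 23 with no filter, 9 with at least 50 CPM and 6 without genes that have near-identical copies, also added. The share of cycling cells was 39.6% without cytokine and 37.5% with IL-15 at 1000 UMIs, 60.0% and 58.2% without thinning, and 72.1% and 70.6% when at least 3 UMIs of the cell cycle lists were asked for. It was higher without cytokine in each. Over the alternatives the median stayed between 0.42 and 0.86 for STAT5 targets, 0.59 and 0.86 for ribosome biogenesis, 0.67 and 0.84 for cholesterol synthesis, 0.46 and 0.70 for amino acid genes, -0.41 and -0.17 for naive and memory genes and -0.51 and -0.27 for hypoxia genes. No log2 difference of the 62 genes past 2-fold changed sign in 620 alternative values. The genes had been chosen as at least 2-fold apart in the same 2 libraries, so this was in part set by the choice. Most of the 62 fell under the 2-fold mark in at least 1 alternative, such as 2610318N02Rik at 0.69 and Mettl1 at 0.71. Ccnd2 at 0.94, Bcl2l1 at 0.85, Asns at 0.77, Hmgcs1 at 0.96, Slc16a3 at -0.92 and Ankrd37 at -0.80 did so too. Others stayed past it in every setting, such as Bcl2 with a lowest value of 1.92 and Ddx21 with 1.46. No paired analysis was possible because each condition has 1 library. Depth limits Cish, Il15ra and other genes under 20 CPM.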

Other observations

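Longer transcripts lay higher in the IL-15 library. In 5 equal classes of transcript length, from shortest to longest, the median log2 difference was 0.02, 0.08, 0.12, 0.12 and 0.15, and the number of genes at least 2-fold higher was 5, 8, 7, 11 and 16. The longest annotated transcript had a median of 4093 bases for the genes at least 2-fold higher, 3222 bases for the genes examined and 711 bases for the genes at least 2-fold lower. Between 50 and 5 IU/mL of IL-15 the same medians were -0.01, 0.02, 0.04, 0.04 and 0.07.

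Other gene lists held no gene past 2-fold. Oxidative phosphorylation, the respiratory chain and ATP synthase, had a median of -0.03 over 77 genes, and the 13 measured mitochondrially encoded genes had -0.12, with 12 of them below 0, beside a median of 0.10 over all genes examined. Interferon-stimulated genes had -0.06 over 8 genes and immediate early genes -0.14 over 7. The heat shock list had 0.07 over 6 genes, or -0.04 under TMM scaling. The zinc-binding metallothioneins Mt1 and Mt2 differed by -0.48 and -0.37, and their list stood at a median of -0.87 in noncycling cells and -0.03 in cycling cells.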
